A study of Mus musculus with 6 samples.

Results

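Osteoclast effector genes and the RANK ligand system were followed in the cranial base of Memo1 mutant mouse embryos as a set of 10 genes, Acp5, Ctsk, Mmp9, Atp6v0d2, Oscar, Nfatc1, Tnfrsf11a, Tnfsf11, Tnfrsf11b and Csf1. They were chosen by name with earlier results of these data known. All 10 were found, once each, among the 43496 entries of the deposited expression table. The cranial base is the plate of cartilage and bone under the brain, and its RNA was sequenced at E15.5, the stage in days of gestation. The series held 3 embryos labelled as controls, whose genotype is not given further, and 3 embryos with an allele of Memo1 made by ENU, a chemical mutagen. All were of the C57BL/6J strain and each gave 1 library. The kind of mutation, the number of mutant copies and whether embryos shared a litter were not stated in the sources used, so the p-values measure the spread between these embryos. The comparison asked how gene expression differs between mutant and control cranial base.

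Osteoclasts are large cells with several nuclei that form by fusion of precursors of the macrophage lineage and dissolve bone and calcified cartilage. The signals needed are the cytokine M-CSF (Csf1) and RANK ligand (Tnfsf11). The ligand acts on its receptor RANK (Tnfrsf11a) on the precursor and leads through the transcription factor Nfatc1 to the effector genes. Stromal cells, osteoblasts and chondrocytes make the ligand and also osteoprotegerin (Tnfrsf11b), a secreted decoy receptor that binds the ligand and blocks it. In the embryo, osteoclasts arrive where cartilage is being replaced by bone.

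Mutant 1 stood apart from the other 5 libraries. It listed 30814 entries at 0, against 19789 to 20596 elsewhere, and its log2 values correlated with theirs at r = 0.748 to 0.762 across genes, against 0.968 to 0.981 among the others. Of 3133 genes with a control mean of 0.5 to 2 FPKM and a value above 0 in the other 5 libraries, 2392 (76.3%) were listed at 0 in mutant 1, so a 0 there says little about a gene in that range. FPKM are fragments scaled to transcript length and to all fragments of a library. Where a member is listed at 0 in mutant 1, each library's value is given and no mean FPKM of the mutants; the fits and the ratio of ligand to decoy still take that 0 as a value unless mutant 1 is left out. Relative to control 1, depth as read from the spacing of low values was 80.2% in control 2, 93.4% in control 3, 117% in mutant 2 and 152% in mutant 3, and could not be read in mutant 1. Memo1 itself was 19.1, 23.1 and 21.9 FPKM in controls, against 25.4, 20.1 and 22.2 FPKM in mutants 1, 2 and 3. This checks no label, since an ENU mutation can leave the mRNA level of its gene as it was. Mutant 3 was the only female, with the X-inactivation transcript Xist at 114 FPKM.

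The 3 secreted or lysosomal effectors of resorption were lower in mutants. Mmp9, the gelatinase that osteoclasts use at the front of invaded cartilage, was 26.03, 19.4 and 31.3 FPKM in controls 1, 2 and 3 and 5.60, 5.93 and 4.40 FPKM in mutants 1, 2 and 3. Its highest mutant thus lay far below its lowest control, and mutant 1 lay between the other mutants. The group means were 25.6 ± 5.98 and 5.31 ± 0.806 FPKM (SD, n = 3), a 4.81-fold difference. Acp5, the tartrate-resistant acid phosphatase by which osteoclasts are stained, was 19.9, 12.6 and 18.1 FPKM in controls, against 7.26, 4.30 and 3.30 FPKM in mutants 1, 2 and 3. The groups did not overlap, and mutant 1 was the mutant nearest to the controls. The means were 16.8 ± 3.80 and 4.95 ± 2.06 FPKM (SD, n = 3), a 3.40-fold difference. Ctsk, the collagen-degrading protease cathepsin K, was 81.0, 59.0 and 77.9 FPKM in controls, against 39.0, 30.6 and 42.3 FPKM in mutants 1, 2 and 3. Its groups did not overlap either, and its difference was the smallest of the 3, 1.95-fold between means of 72.6 ± 11.9 and 37.3 ± 6.07 FPKM (SD, n = 3). In bulk tissue fewer osteoclasts and less RNA per osteoclast cannot be told apart, nor does bulk RNA show which cells these transcripts came from.

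**Figure D1:**
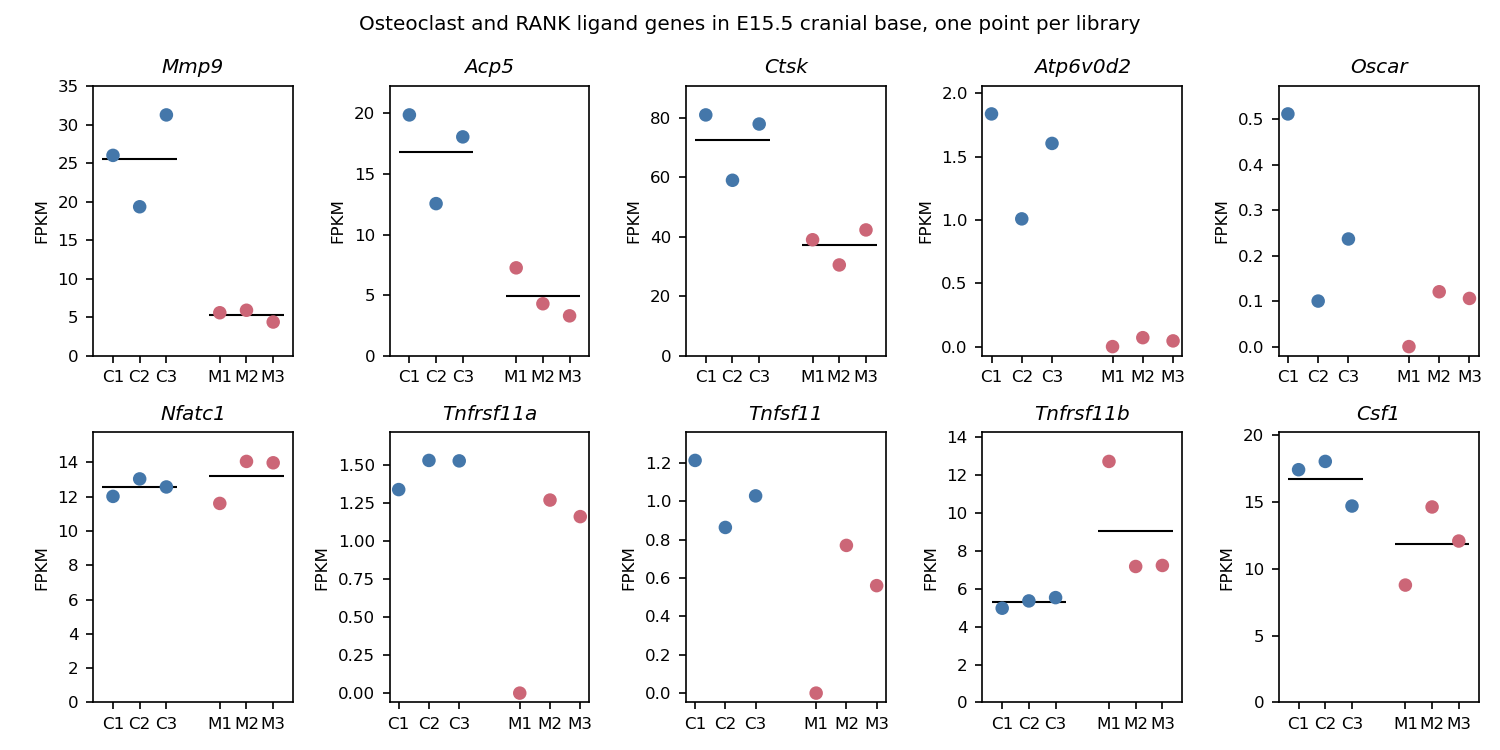
FPKM of the 10 genes in the 3 control libraries (C1 to C3, blue) and the 3 mutant libraries (M1 to M3, red), 1 point per library, with the group mean as a line where no library was at 0. Mmp9, Acp5 and Ctsk were lower in every mutant than in every control, Nfatc1 overlapped, Tnfrsf11b was higher in every mutant, and mutant 1 was listed at 0 for Atp6v0d2, Oscar, Tnfrsf11a and Tnfsf11.

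Whether these differences passed a test across all genes rested on how mutant 1 was counted. The test was limma on log2(FPKM + 1) over 15710 entries with a mean of at least 1 FPKM, with p-values adjusted by the Benjamini-Hochberg method and called under 0.05. With all 6 libraries at equal weight it called 0 of these entries (0%), with 805 at an unadjusted p under 0.05, and so 0 of the 7 members above that mean. The log2 change was -2.06 (SE 0.22, limma adjusted p = 0.437) for Mmp9, -1.61 (SE 0.31, limma adjusted p = 0.695) for Acp5 and -0.94 (SE 0.18, limma adjusted p = 0.695) for Ctsk. Array weights give less influence to a library that departs from its group. Mutant 1 received 0.0329, mutant 2 received 1.48 and mutant 3, the only female, 2.76, while the controls received 1.74 to 2.22. The weighted mutant values thus rest mostly on mutant 3. With these weights all 3 effectors fell, where 1.32% of all tested entries were called lower and 0.719% higher. The weighted log2 change was -2.12 (SE 0.19, limma adjusted p = 0.0103) for Mmp9, -1.89 (SE 0.19, limma adjusted p = 0.0125) for Acp5 and -0.89 (SE 0.17, limma adjusted p = 0.0475) for Ctsk. Without mutant 1, where 0.0318% of entries were called lower and 0.0127% higher, their limma adjusted p were 0.0507, 0.0511 and 0.0957, just past the threshold for the first 2. The sizes moved little, with log2 changes of -2.09, -1.88 and -0.98 there. With array weights and no filter Mmp9 passed (limma adjusted p = 0.0487), while Acp5 (0.0599) and Ctsk (0.113) did not. None of the other 4 tested members passed in any of the fits.

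**Figure D2:**
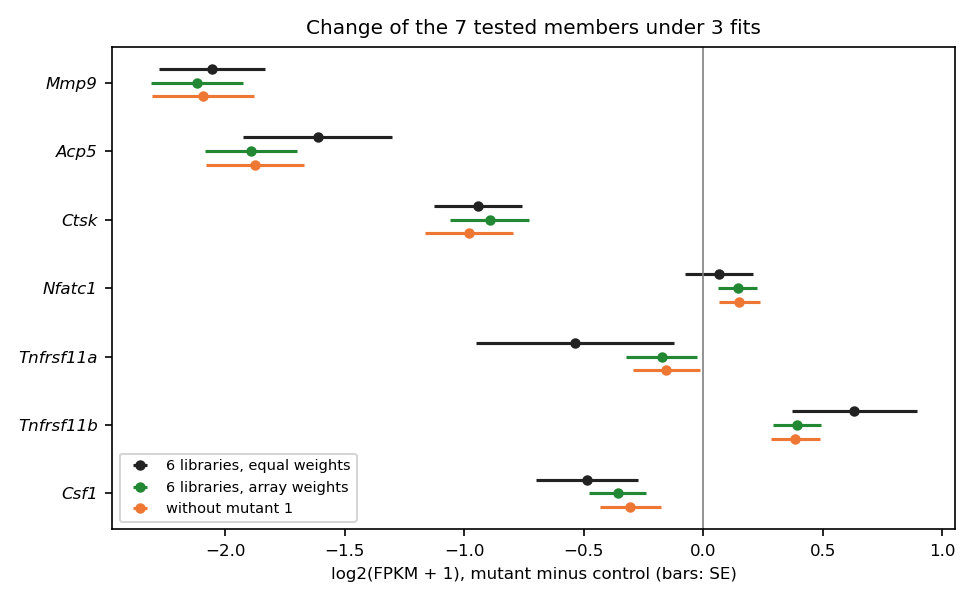
Difference in log2(FPKM + 1), mutant minus control, of the 7 tested members, with bars of 1 SE, in 3 fits: 6 libraries at equal weight (black), 6 with array weights (green) and 5 without mutant 1 (orange). Mmp9, Acp5 and Ctsk lie below 0 by about the same amount in the 3 fits, while Tnfrsf11a moves from -0.54 to -0.15 without mutant 1.

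Differences in the same direction were seen between embryos with the same first title word, whose meaning is not given. Control 1 and mutant 1 shared one such word and differed 4.65-fold in Mmp9, 2.74-fold in Acp5 and 2.07-fold in Ctsk. Controls 2 and 3 shared another with mutant 3, and the mean of the controls there was 5.76-fold, 4.63-fold and 1.62-fold that of mutant 3 for the same genes. Mutant 3, the female, had the lowest Mmp9 and Acp5 of all 6 embryos and the highest Ctsk of the mutants. With mutant 3 left out the log2 change was -1.95 for Mmp9, -1.41 for Acp5 and -1.04 for Ctsk.

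The sequences before the starts of Ctsk and Acp5 are shown because both genes were lower in every mutant and are known targets of Nfatc1, PU.1 and MITF, the factors that set the osteoclast program. They are from RefSeq on GRCm38.p6, another build than that of the expression table, and were matched by symbol. Nfatc1 was not searched. Of the other members, Acp5 (with 3 starts), Ctsk, Oscar, Tnfrsf11a, Tnfsf11 and Csf1 had a window there, 8 in all. The first is the 250 bases before the start of Ctsk, chr3:95498960-95499209 on the plus strand. The second is 240 bases before the start of Acp5 that lies farthest along the gene, chr9:22130609-22130848 on the minus strand, without the last 10 bases, which the annotation places in an exon. Capitals mark matches, on either strand, to GGAAA (NFAT core), GAGGAA (PU.1), TGANTCA (AP-1) and CATGTG (MITF). The first 2 overlap wherever GAGGAA is followed by A.
Ctsk: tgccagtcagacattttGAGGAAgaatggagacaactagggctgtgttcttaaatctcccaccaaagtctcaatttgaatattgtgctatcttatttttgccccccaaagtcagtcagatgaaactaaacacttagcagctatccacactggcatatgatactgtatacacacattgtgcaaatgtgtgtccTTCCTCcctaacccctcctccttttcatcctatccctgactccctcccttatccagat
Acp5: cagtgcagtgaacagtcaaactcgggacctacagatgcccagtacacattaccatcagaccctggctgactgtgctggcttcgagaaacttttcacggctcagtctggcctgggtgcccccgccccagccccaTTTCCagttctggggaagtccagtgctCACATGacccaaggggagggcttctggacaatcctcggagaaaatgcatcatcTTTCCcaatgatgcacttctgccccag
The Ctsk window held 2 matches to the PU.1 letters and none to the other 3 motifs. The Acp5 window held 2 matches to the NFAT core and 1 to the MITF letters. Over all 32851 windows of 250 bases, 55.6% held the NFAT core, 23.3% the PU.1 letters, 6.75% the AP-1 letters and 12.3% the MITF letters. Of the 8 windows of the searched members, 6 held the NFAT core, 2 the PU.1 letters, 0 the AP-1 letters and 2 the MITF letters. A match describes the letters in the window and no binding.

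A further pair of osteoclast genes was rare in the tissue. Atp6v0d2, a proton pump subunit that osteoclasts also need for fusion, was 1.84, 1.01 and 1.60 FPKM in controls, against 0, 0.0706 and 0.0452 FPKM in mutants 1, 2 and 3. All 3 controls were above 1 FPKM and all 3 mutants under 0.1 FPKM, though mutants 2 and 3 were deeper than any control. Its mean over all libraries, 0.761 FPKM, lay under the limit of 1 FPKM, so it was fitted with no filter. There the log2(FPKM + 1) change was -1.24 (SE 0.20, limma adjusted p = 0.759) at equal weights. With array weights it was -1.21 (SE 0.16, limma adjusted p = 0.0712), where 0.0382% of 26194 entries were called lower and 0.0305% higher. With a pseudocount of 0.1, which shrinks low genes less, the weighted log2 change was -3.33 (SE 0.32, limma adjusted p = 0.0224), where 0.275% were called lower and 0.256% higher. These weighted fits with no filter were chosen after seeing the data. Oscar, a receptor that gives precursors a co-stimulatory signal, was 0.512, 0.1002 and 0.237 FPKM in controls, against 0, 0.121 and 0.106 FPKM in mutants 1, 2 and 3. Control 2 was below mutants 2 and 3, so the groups overlapped, and the log2 change with no filter was -0.24 (SE 0.13, limma adjusted p = 0.759).

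Dcstamp and Ocstamp, membrane proteins of osteoclast fusion, were in the list of other resorption genes and are named after their values were seen. Dcstamp was 0.322, 0.402 and 0.479 FPKM in controls, against 0, 0.0614 and 0 FPKM in mutants 1, 2 and 3. Ocstamp was 0.650, 0.335 and 0.338 FPKM in controls, against 0, 0.0159 and 0.00611 FPKM in the mutants. As for Atp6v0d2, each mutant lay below each control for both genes. The 0 of mutant 1 says little at this level. Of genes with a control mean under 0.5 FPKM and above 0 in the other 5 libraries, 89.3% were at 0 there. With array weights, a pseudocount of 0.1 and no filter the log2 changes were -2.13 (SE 0.30, limma adjusted p = 0.0489) for Dcstamp and -2.25 (SE 0.31, limma adjusted p = 0.0477) for Ocstamp. With a pseudocount of 1 and array weights neither passed (limma adjusted p = 0.0720 and 0.109). Nor did they with no filter at equal weights (limma adjusted p = 0.759 for both) or without mutant 1 (0.181 and 0.213). Calcr, the calcitonin receptor of mature osteoclasts, was 0.279, 1.05 and 0.250 FPKM in controls, against 0, 0.230 and 0.0340 FPKM in the mutants. Calcr and Siglec15, a receptor of osteoclast fusion, were the other 2 genes of the list under the limit and did not pass in the setting where Dcstamp and Ocstamp did (limma adjusted p = 0.266 and 0.548).

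Nfatc1, the transcription factor that drives the effector genes, did not differ in step with them. It was 12.0, 13.0 and 12.6 FPKM in controls, against 11.6, 14.06 and 13.98 FPKM in mutants 1, 2 and 3. Mutant 1 was the lowest of all and mutants 2 and 3 the highest, so the groups overlapped with all 6 libraries. The means were 12.6 ± 0.509 and 13.2 ± 1.39 FPKM (SD, n = 3), with a log2 change of 0.066 (SE 0.14, limma adjusted p = 0.820). Nfatc1 also acts in other cells, among them those of blood vessels, and bulk RNA does not show which cells its transcripts came from.

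Tnfrsf11a, the receptor RANK, was 1.34, 1.53 and 1.53 FPKM in controls, against 0, 1.27 and 1.16 FPKM in mutants 1, 2 and 3. Each mutant was below each control, but mutants 2 and 3 came close to control 1. The log2 change was -0.54 (SE 0.41, limma adjusted p = 0.695) with all 6 libraries and -0.15 (SE 0.14, limma adjusted p = 0.621) without mutant 1. Most of the first value thus came from the 0 in mutant 1.

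The ligand was lower and its decoy higher in mutants. Tnfsf11, RANK ligand, was 1.21, 0.864 and 1.03 FPKM in controls, against 0, 0.771 and 0.561 FPKM in mutants 1, 2 and 3. The groups did not overlap, but mutant 2 was only slightly below control 2. With no filter the log2 change was -0.53 (SE 0.27, limma adjusted p = 0.759), and -0.29 (SE 0.14, limma adjusted p = 0.476) without mutant 1. Tnfrsf11b, osteoprotegerin, was 4.98, 5.36 and 5.54 FPKM in controls, against 12.7, 7.18 and 7.23 FPKM in mutants 1, 2 and 3. Every mutant was above every control, mutants 2 and 3 were nearly alike, and mutant 1 was the highest. The means were 5.29 ± 0.287 and 9.05 ± 3.19 FPKM (SD, n = 3), a 1.71-fold difference, and 1.36-fold with mutants 2 and 3 alone. The log2 change was 0.63 (SE 0.26, limma adjusted p = 0.695), 0.39 (SE 0.10, limma adjusted p = 0.0982) with array weights and 0.38 (SE 0.10, limma adjusted p = 0.154) without mutant 1.

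In FPKM, which is per length, the ligand was 24.4%, 16.1% and 18.6% of the decoy in the controls and 10.7% and 7.75% in mutants 2 and 3, and it was listed at 0 in mutant 1. All mutants were below all controls in this ratio. As the log2(FPKM + 1) of the ligand minus that of the decoy it was -1.63 on average in controls and -2.80 in mutants, a difference of -1.17 (exact two-sided permutation test, p = 0.1, the smallest that 3 against 3 allows). Without mutant 1 the difference was -0.67 (exact two-sided permutation test, p = 0.2, the smallest that 3 against 2 allows). The size depended on the pseudocount, with -2.26 at 0.1 and -0.58 at 5.

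**Figure D3:**
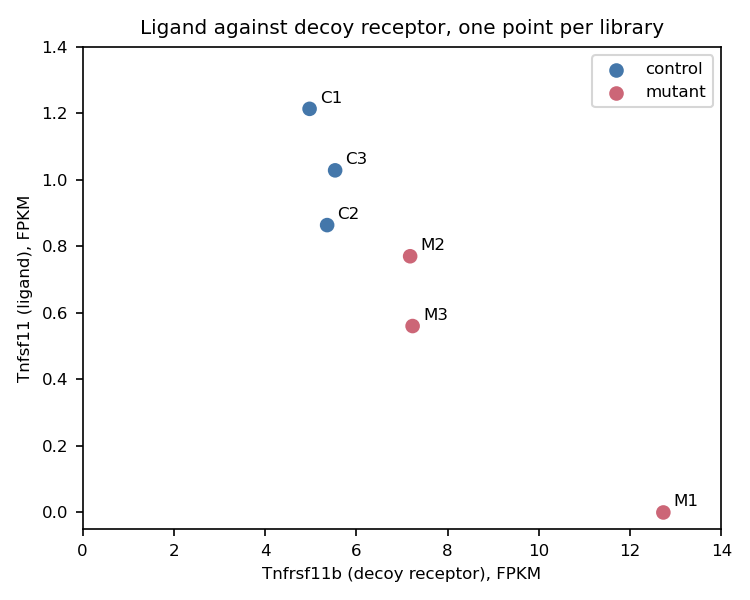
Tnfsf11 (vertical axis, FPKM) against Tnfrsf11b (horizontal axis, FPKM), 1 point per library, controls C1 to C3 in blue and mutants M1 to M3 in red. Controls lie at 4.98 to 5.54 FPKM of the decoy and 0.864 to 1.21 FPKM of the ligand, mutants 2 and 3 lie to the right and below them, and mutant 1 has the most decoy and the ligand at 0.

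Csf1, the growth factor M-CSF that keeps osteoclast precursors alive, was 17.4, 18.0 and 14.7 FPKM in controls, against 8.78, 14.6 and 12.1 FPKM in mutants 1, 2 and 3. The groups did not overlap, but mutant 2 and control 3 were almost equal. The means were 16.7 ± 1.78 and 11.8 ± 2.93 FPKM (SD, n = 3), with a log2 change of -0.49 (SE 0.21, limma adjusted p = 0.695), -0.36 (SE 0.12, limma adjusted p = 0.166) with array weights and -0.30 (SE 0.13, limma adjusted p = 0.306) without mutant 1. Its receptor Csf1r, which marks the macrophage lineage, was 16.0, 16.0 and 18.0 FPKM in controls, against 18.2, 14.4 and 13.9 FPKM in the mutants, so mutants 2 and 3 were below every control and mutant 1 above (log2 change -0.11, SE 0.15, limma adjusted p = 0.744).

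Of all 10 members, the 3 mutants lay below the 3 controls in 7 (Mmp9, Acp5, Ctsk, Atp6v0d2, Tnfrsf11a, Tnfsf11 and Csf1) and above them in 1 (Tnfrsf11b). Of the 7 tested members, 5 lay below and 1 above, where 11.9% and 8.98% of the 15710 tested entries did. Atp6v0d2 and Tnfsf11 were not tested there, as their means were under 1 FPKM. For Atp6v0d2, Tnfrsf11a and Tnfsf11 the lowest value was the 0 of mutant 1. With mutants 2 and 3 alone the same 7 of the 10 lay below, 5 of them tested, where 20.1% of tested entries did. Nfatc1 joined Tnfrsf11b above, where 16.2% did. The 7 tested members had a median log2 change of -0.54, against -0.046 over all tested entries, and of -0.30 against -0.015 without mutant 1. As the members were chosen with earlier results of these data known, these contrasts are a description and no test.

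The order of the levels differed between the groups. In controls Ctsk was the highest by far, followed by Mmp9, Acp5, Csf1 and Nfatc1, then Tnfrsf11b, and then Atp6v0d2, Tnfrsf11a, Tnfsf11 and Oscar. Of the neighbours in that order, Mmp9 and Acp5, Acp5 and Csf1, and Atp6v0d2 and Tnfrsf11a overlapped in the controls. In mutants 2 and 3 Ctsk was still first, but Nfatc1, Csf1 and Tnfrsf11b came before Mmp9 and Acp5, and Atp6v0d2 was last. Controls also differed among themselves. Control 2 was the lowest control for 6 of the 10, at 67.5% of the mean of controls 1 and 3 for Mmp9, 66.2% for Acp5, 74.3% for Ctsk, 58.6% for Atp6v0d2, 26.8% for Oscar and 77.1% for Tnfsf11. For Nfatc1, Tnfrsf11a, Tnfrsf11b and Csf1 it was at 102% to 112%.

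Genes around the members were taken from 5 lists, with 98 names, of which 93 were found and 80 tested. With all 6 libraries 0 passed in either direction (0% of all entries did), and with array weights 1 of the 80 fell and 0 rose, a share close to the 1.32% of all entries called lower in that fit. The 3 mutants lay below the controls in 10 (12.5%) and above them in 8 (10%), near the 11.9% and 8.98% over all entries. The median log2 change was 0.020, and -0.046 without mutant 1.

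Among 26 other resorption genes found, 22 were tested. The one that fell with array weights was Slc37a2, a transporter that is high in osteoclasts, at 2.96, 2.22 and 2.85 FPKM in controls, against 0, 0.972 and 1.04 FPKM in mutants 1, 2 and 3 (weighted log2 change -0.86, SE 0.16, limma adjusted p = 0.0450). It missed the threshold without mutant 1 (limma adjusted p = 0.0897). Slc9b2, a sodium and proton exchanger of osteoclasts, was 2.67, 1.60 and 1.83 FPKM in controls, against 0, 0.917 and 0.965 FPKM in the mutants (weighted limma adjusted p = 0.132). Slc4a2, a chloride and bicarbonate exchanger of osteoclasts and many other cells, went the other way, at 34.4, 38.5 and 41.8 FPKM in controls, against 82.3, 48.0 and 48.8 FPKM in the mutants (weighted limma adjusted p = 0.0997). The remaining genes of the list included pump subunits that most cells make, such as Atp6v0d1, the common form of the subunit d, at 60.8, 58.8 and 53.5 FPKM in controls, against 83.9, 56.3 and 55.3 FPKM in the mutants. The median of the 22 was 0.069, and -0.0075 without mutant 1.

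In the list of co-stimulatory signalling 0 of 8 tested genes passed, with a median log2 change of -0.26. Its adaptor Tyrobp, which joins receptors of precursors to their kinases, was 40.8, 43.4 and 48.3 FPKM in controls, against 46.0, 32.7 and 33.7 FPKM in mutants 1, 2 and 3, so mutant 1 lay among the controls (weighted limma adjusted p = 0.0644). The second adaptor, Fcer1g, was 40.3, 36.1 and 31.1 FPKM in controls, against 35.3, 28.3 and 23.7 FPKM in the mutants. Vav3, an exchange factor of the osteoclast cytoskeleton, was 6.80, 5.82 and 3.83 FPKM in controls, against 2.85, 3.64 and 3.83 FPKM in the mutants.

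In the list of the M-CSF axis and precursor factors 0 of 10 passed, with a median of -0.19, and 7 of 10 were below 0, as were 54.2% of all tested entries. The 3 mutants lay below the controls in 4 of the 10 and above them in 1, where the shares over all entries were 11.9% and 8.98%. The 3 genes described next had the smallest p of the list. Ccr1, a chemokine receptor, was 2.98, 2.52 and 2.44 FPKM in controls, against 0, 0.962 and 1.29 FPKM in the mutants (weighted limma adjusted p = 0.0577). Ccl9, a chemokine that osteoclasts secrete, was 9.20, 10.1 and 8.79 FPKM in controls, against 0, 6.25 and 3.46 FPKM in the mutants (weighted limma adjusted p = 0.0666). Cx3cr1, a chemokine receptor of macrophages, was 10.03, 10.3 and 10.5 FPKM in controls, against 9.45, 7.37 and 8.37 FPKM in the mutants (weighted limma adjusted p = 0.125). These 3 were among the 4 without overlap.

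In the list of RANK and NFAT signalling 0 of 22 passed, with a median of 0.011. The kinase Mapk14 (p38) was 32.0, 37.1 and 31.0 FPKM in controls, against 27.0, 28.3 and 27.9 FPKM in the mutants, the transcription factor Jun 20.9, 25.9 and 24.8 against 25.1, 32.2 and 30.6 FPKM, and the adaptor Gab2 5.85, 5.88 and 4.81 against 8.62, 6.79 and 7.11 FPKM. In the list of stromal regulators of ligand and decoy 0 of 18 passed, with a median of 0.18. Pthlh, whose product PTHrP induces the ligand, was 4.00, 5.39 and 4.78 FPKM in controls, against 5.94, 7.89 and 7.19 FPKM in the mutants (weighted limma adjusted p = 0.0782). Each mutant was above each control there, in the direction opposite to Tnfsf11. Lrp5, a Wnt co-receptor, was 44.1, 45.0 and 47.7 FPKM against 59.2, 59.4 and 46.7 FPKM. Efnb2, a ligand on osteoclasts that signals to osteoblasts, was 26.3, 33.5 and 24.9 FPKM against 55.4, 36.3 and 36.1 FPKM.

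**Figure D4:**
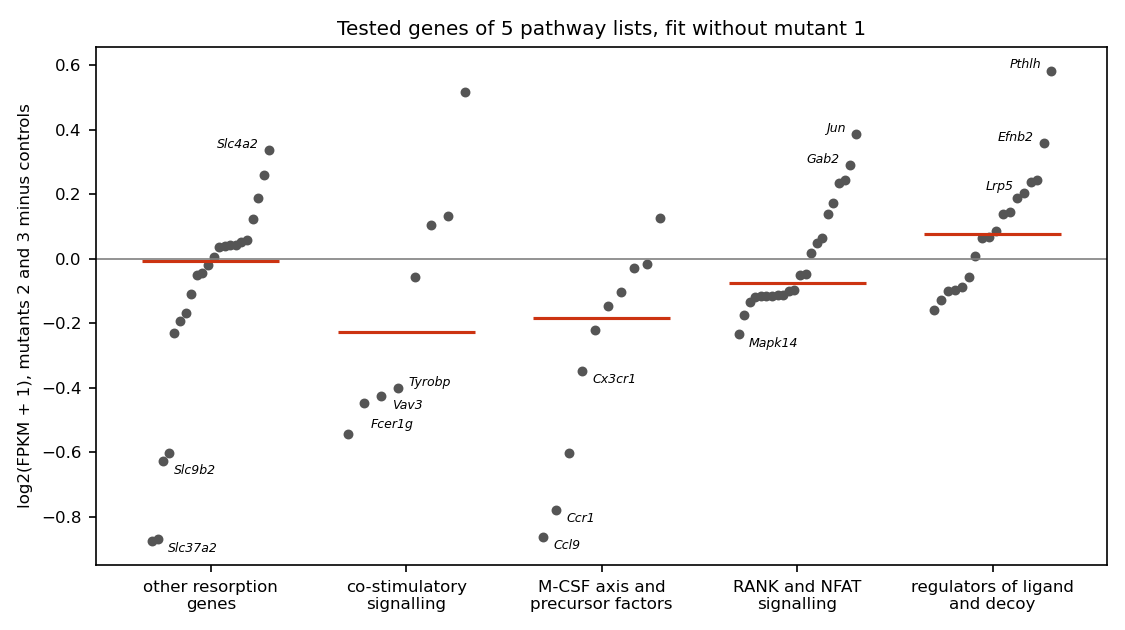
Difference in log2(FPKM + 1), mutants 2 and 3 minus the 3 controls, of every tested gene of the 5 lists (grey points, sorted within a list). The list median is in red, and the 3 genes of smallest p in each list with all 6 libraries are named. The medians lie between -0.23 and 0.077, and Slc37a2, Ccl9 and Ccr1 are among the lowest genes.

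Markers of other cells in the tissue were summed in each library. The macrophage list (16 names for 15 genes, 5 of them at 0 in mutant 1) was 240.4 to 265 FPKM in controls and 243.9 to 285 FPKM in mutants. These sums overlapped. Lyz2 went the other way from most of the list and was taken out after its values were seen. Without it the other 14 genes summed to 196, 203 and 224 FPKM in controls. They summed to 214 FPKM in mutant 1 and to 190 and 174 FPKM in mutants 2 and 3, the last 2 below every control. Mutant 1 lay within the controls, so the groups still overlapped. The full list had 14 tested genes, with Lyz2 among them and without Cd163, which was under the limit. Of these 14, 9 were below 0 with all libraries and 12 without mutant 1, where 54.2% and 52.9% of all entries were. Without mutant 1, 6 of them lay below the controls in both mutants and 1, Lyz2, above, where 20.1% and 16.2% of all entries did. C1qb, a complement chain, was 49.8, 52.6 and 59.9 FPKM in controls, against 37.6, 47.9 and 37.2 FPKM in the mutants, and Lyz2, lysozyme, was 44.5, 47.4 and 40.6 against 70.4, 71.1 and 70.4 FPKM and rose with array weights (limma adjusted p = 0.0199). The neutrophil list (10 genes, 8 at 0 in mutant 1), taken because neutrophils also make Mmp9, was 20.6 to 86.5 FPKM in controls and 42.4 to 103 FPKM in mutants. Control 2 had the highest neutrophil sum of the controls, 86.5 FPKM. It also had the lowest Mmp9 of them, as it was the lowest control for 6 of the 10 members. The part of neutrophils in the Mmp9 values was not tested.

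The sum of the osteoblast list (12 genes, 2 at 0 in mutant 1) moved with the effectors. It was 1959 to 2805 FPKM in controls and 1082 to 1606 FPKM in mutants, without overlap, and control 2 was the lowest control in it too. In 7 of the 12 genes every mutant was below every control (11.9% of all entries) and in 0 every mutant was above (8.98%). Of the 12, 10 had a log2 change below 0, while Runx2 and Phex were above 0 (0.17 and 0.098). With array weights Spp1, Dmp1 and Alpl fell (limma adjusted p = 0.00929, 0.0223 and 0.0490) and 0 rose. Spp1, osteopontin, named for its profile near that of Mmp9, was 302, 273 and 385 FPKM in controls, against 71.1, 102 and 111 FPKM in the mutants. Col1a1, the main collagen chain of bone and its highest gene, was 1037, 899.7 and 1354 FPKM in controls, against 687 to 891 FPKM in mutants (weighted limma adjusted p = 0.166). Mmp13, a collagenase that chondrocytes at the end of hypertrophy make, was 27.0, 19.0 and 33.3 FPKM in controls, against 0, 1.28 and 1.19 FPKM in the mutants (weighted limma adjusted p = 0.00159). The sum of the hypertrophic chondrocyte list (7 genes, 1 at 0 in mutant 1), which shares Spp1 and Ibsp with the osteoblast list, was 1333 to 1733 FPKM in controls and 782 to 996 FPKM in mutants. Without Spp1 and Ibsp the other 5 genes overlapped, at 434, 529 and 576 FPKM in controls, against 571, 511 and 509.8 FPKM in mutants. Of these 5, Ihh and Vegfa, signals of hypertrophic cartilage, were higher in every mutant than in every control, and Mmp13 was lower. The collagen Col10a1 overlapped, at 306.5, 407 and 435.9 FPKM in controls, against 429.5, 378 and 403 FPKM in mutants. The cartilage list (12 genes, 0 at 0 in mutant 1) was 4673 to 6147 FPKM in controls and 7032 to 7813 FPKM in mutants, without overlap, and so went the opposite way to the effectors. In 10 of its 12 genes every mutant was above every control (8.98% of all entries), and its median log2 change was 0.52. With array weights Matn4, Lect1, Sox9 and Acan rose (limma adjusted p = 0.0164 to 0.0490), and 0 of the list fell. The endothelial list (8 genes, 0 at 0 in mutant 1) was 192 to 219 FPKM in controls and 213 to 247 FPKM in mutants. The part of these cell types, or of how much bone was dissected with the cartilage, in the lower effector levels was not tested.

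**Figure D5:**
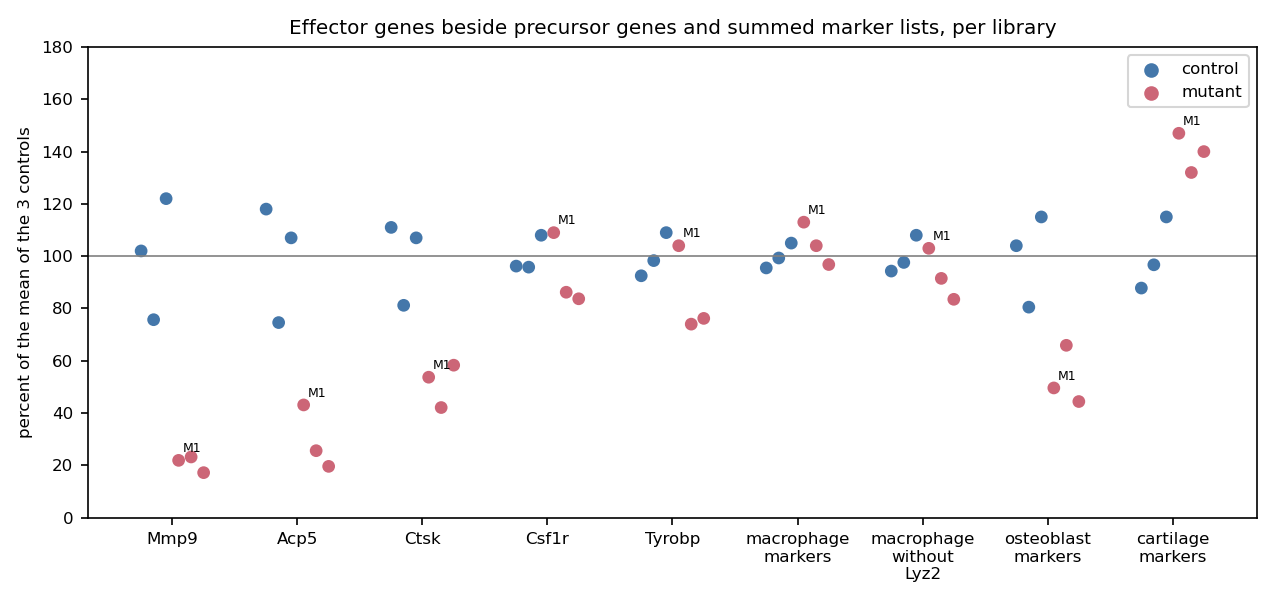
FPKM of Mmp9, Acp5, Ctsk, Csf1r and Tyrobp and summed FPKM of the macrophage (with and without Lyz2), osteoblast and cartilage lists, each as a percentage of the mean of the 3 controls, 1 point per library (controls blue, mutants red, mutant 1 marked M1). Mmp9 is at 17.2% to 23.2% in the mutants and the osteoblast sum at 44.4% to 65.9%, while the macrophage sum is at 96.8% to 113% (83.5% to 103% without Lyz2) and the cartilage sum at 132% to 147%.

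The genes whose profiles were most like those of the members were found among 10251 entries with a mean of at least 5 FPKM and no 0. The measure was the root-mean-square distance of log2(FPKM + 1) over the 6 libraries, each gene centred on its mean. Nearest to Mmp9 were Krt5 (distance 0.287), Hdc (0.302) and Spp1 (0.317). Krt5, a keratin of stratified epithelia, was 95.0, 83.8 and 93.8 FPKM in controls and 29.3, 27.0 and 29.0 FPKM in mutants 1, 2 and 3, and Krt6a, another such keratin, was among the nearest to Acp5. How much epithelium each dissection held, and its part in these values, was not tested. Hdc, histidine decarboxylase, was 34.4, 25.1 and 38.3 FPKM in controls, against 7.61, 13.4 and 9.19 FPKM in mutants 1, 2 and 3. Nearest to Acp5 were Spata18 (0.228), Krt6a (0.261) and 2610028H24Rik (0.272). Nearest to Ctsk were Mlf1 (0.159), Upk3a (0.171) and Aspn (0.173), of which Aspn, the matrix protein asporin, was 112, 105 and 116 FPKM in controls, against 50.5, 43.7 and 74.9 FPKM in the mutants. Nearest to Tnfsf11 were Ly6e (0.0177), Pot1a (0.0564) and Dbr1 (0.0618), and nearest to Tnfrsf11b were Map3k7cl (0.0371), Slc4a2 (0.0476) and Vps37b (0.0489). The profiles of Tnfsf11 and Tnfrsf11b are shaped mainly by mutant 1, which was the lowest and the highest library for them.

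In the authors' deposited table the signed fold, positive where mutants are higher, was -4.81 for Mmp9 (p = 7.68e-04, q = 0.214), -3.4 for Acp5 (p = 0.00863, q = 0.260) and -1.95 for Ctsk (p = 0.00881, q = 0.262). For the other 7 members the authors' deposited table holds a code in place of q. Among them the authors' deposited table gives the smallest p to Atp6v0d2 (p = 0.00124), then Tnfrsf11b (p = 0.0652) and Csf1 (p = 0.0862). No source used here names the test behind these values.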

How the data were processed

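Per the labels' protocols, tissue was kept in a preserving solution until embryos were genotyped, and RNA then went into Illumina library preparation. The deposited values are FPKM, which the authors made. Cufflinks, without a version, and mm9 are named in the submitters' processing notes, and the unit was inferred from this tool and the values. No source used here names the aligner, annotation release or filters. The authors also deposited group means, a signed fold score, a p-value and a q-value, in which 99 is a code (37016 entries). The code 999999999 was treated as missing, and 15 entries with it were left out.

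Entries averaging 1 FPKM or more across the 6 libraries entered a limma fit (limma 3.58.1, R 4.3.3) of log2(FPKM + 1), with trend and robust eBayes estimates and genotype as the only term, two-sided, at a Benjamini-Hochberg adjusted p of 0.05. Folds on this scale understate changes of low genes. The ratio was tested with scipy 1.17.1. Depth was read from the steps between values of low genes, asking for 100 genes within 2%.

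The members and gene lists were chosen with earlier results of these data known. Named were all members, the 3 genes of smallest p in each pathway list and any called there, the nearest profiles, and the highest gene of each marker list (Ibsp, S100a9, Col2a1 and Cdh5 are given here by name only). Csf1r, Calcr, Dcstamp, Ocstamp, Siglec15, Atp6v0d1, Car2, Cd163, Runx2, Phex, Col10a1, Ihh, Vegfa and the marker genes called with array weights were named after their values were seen. Alternatives were array weights, pseudocounts of 0.1 and 5, no filter and 5 FPKM, median-ratio scaling, plain eBayes, the first title word as a block, and each library left out. Irf8 had no matching entry and was not analysed here. The other unmatched names, Tm7sf4, Nhedc2, Atp6v0a3, Sfpi1 and Adgre1, are further symbols of listed genes. Those genes were found as Dcstamp, Slc9b2, Tcirg1, Spi1 and Emr1. The numbers of the embryos follow accession order and pair no samples.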

Additional observations from a re-analysis of the deposited data

How the results depend on the processing

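All 10 members kept their direction in every alternative run on them, 127 values in all, and 120 of these stayed on the same side of the threshold; the other 7 passed it, all of them with array weights, in 3 of 18 fits for Mmp9, 2 of 18 for Acp5, 1 of 18 for Ctsk and 1 of 4 for Atp6v0d2. With array weights and no filter Acp5 (limma adjusted p = 0.0599) and Ctsk (0.113) did not pass, nor did Ctsk with a pseudocount of 0.1 as well (0.0877). Array weights gave 207 genes lower and 113 higher, 3 members lower and 1 pathway gene lower, where equal weights gave 0 of each. Leaving out 1 library at a time gave 0 to 5 genes lower and 0 to 2 higher, the 5 and 2 without mutant 1, and 0 members either way. The members with all mutants above the controls were 1 to 2 over these, the 2 without mutant 1. Over all alternatives the log2 change ranged from -2.35 to -1.55 for Mmp9, from -2.15 to -1.14 for Acp5, from -1.08 to -0.81 for Ctsk and from 0.38 to 0.76 for Tnfrsf11b, and the limma adjusted p of Mmp9 from 0.0103 to 0.872. With the first title word as a replicate block the log2 change of Mmp9 was -2.16 (limma adjusted p = 0.598) and 0 genes passed; mutant 2, alone with its word, then adds nothing to the contrast. Median-ratio scaling divided mutant 1 by 1.14 and the others by 0.962 to 0.997. Members under 2 FPKM (Oscar, Atp6v0d2, Tnfrsf11a and Tnfsf11) are listed at 0 in mutant 1, where most genes of their level are, so their values without mutant 1 rest on 2 mutants and those with it on that 0. No source used here gives the number of fragments per library, so no counting interval was computed.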
